A study of Arabidopsis thaliana with 24 samples.

Results

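The genes described here flank PHYB, the gene of the red-light photoreceptor phytochrome B, on chromosome 2 of Arabidopsis thaliana. They were taken as every probe set annotated to 1 gene with a locus number from AT2G15000 to AT2G21630, without PHYB itself. This gave 370 of the 22746 probe sets on the array, standing for 364 genes, and 203 of them (200 genes, 100 on each side of PHYB) were bright enough to be tested. The other 167 had mean signals between 1.37 and 85.0 (median 23.2), against 72.4 to 9255 (median 324) for those tested. The rule used locus numbers alone, but it was set with earlier results of these data known, and the brightness filter used these signals.

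Whole seedlings of 4 genotypes were measured on 24 Affymetrix arrays: wild type and those labelled phyA mutant, phyB mutant and phyAphyB mutant. Seedlings without or lacking a phytochrome are, in what follows, those labelled as its mutant. All were 4 days old and raised in darkness, and each genotype was sampled in the dark and after 1 h of red light (wavelength 680 nm, fluence rate 8 µmol m-2 s-1), with 3 biological replicates per group. The sources used here do not give the alleles, the parental strain of each mutant or the number of lines behind each genotype. RNA came from root, hypocotyl and cotyledon together, so fewer cells of a type and less RNA per cell cannot be told apart.

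Phytochromes are light-switched receptors that move into the nucleus in red or far-red light and remove transcription factors that hold seedlings in their dark-grown form. Phytochrome B is the main receptor of lasting red light, while phytochrome A builds up in darkness and handles far-red light and the first exposure to light. Genes that lie near each other on a chromosome tend to be inherited together. A mutant can therefore differ from its control at genes beside the mutated one, and such differences are present whether or not the receptor acts on those genes. For this reason neighbours of a mutated gene are examined separately from the genes that the receptor regulates.

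Values are MAS5 signals, 1 brightness value per probe set and array, and differences are on the log2 scale with the SE from limma. The phyB difference is the mean of phyB minus wild type and phyAphyB minus phyA over both lights, 12 arrays without phytochrome B against 12 with it. A call is an adjusted p under 0.05 after Benjamini-Hochberg adjustment over all 15085 tested probe sets. Array medians lay between 169.8 and 195.1, and correlations within groups between 0.954 and 0.981. Dark phyA replicates 2 and 3 stood apart in a control for 25S ribosomal RNA, at 10508 and 13574 against 46.8 to 450.0 on the other 22 arrays. The probe sets of PHYA and PHYB were not analysed here, so the genotype labels could not be checked on the mutated genes.

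Seedlings lacking phytochrome B differed from those with it at 73 of the 203 neighbours (36.0%), while 20.6% of all tested probe sets were called. Of the neighbours, 35 were higher and 38 lower, against 10.1% and 10.5% of all tested probe sets. A change of at least 2-fold was called for 16 neighbours, 12 higher and 4 lower, against 1.74% overall. On the rest of chromosome 2, 183 of 1009 probe sets were called and 16 of them reached 2-fold. The median size of the phyB difference was 0.168 (log2) among the neighbours and 0.114 over all tested probe sets. Some neighbours passed the brightness filter through the groups in which they were high. Among the 16 with a 2-fold change, 8 had their lowest group mean below the 40th percentile of every array, a percentile that ranged from 97.4 to 127.3.

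**Figure D1:**
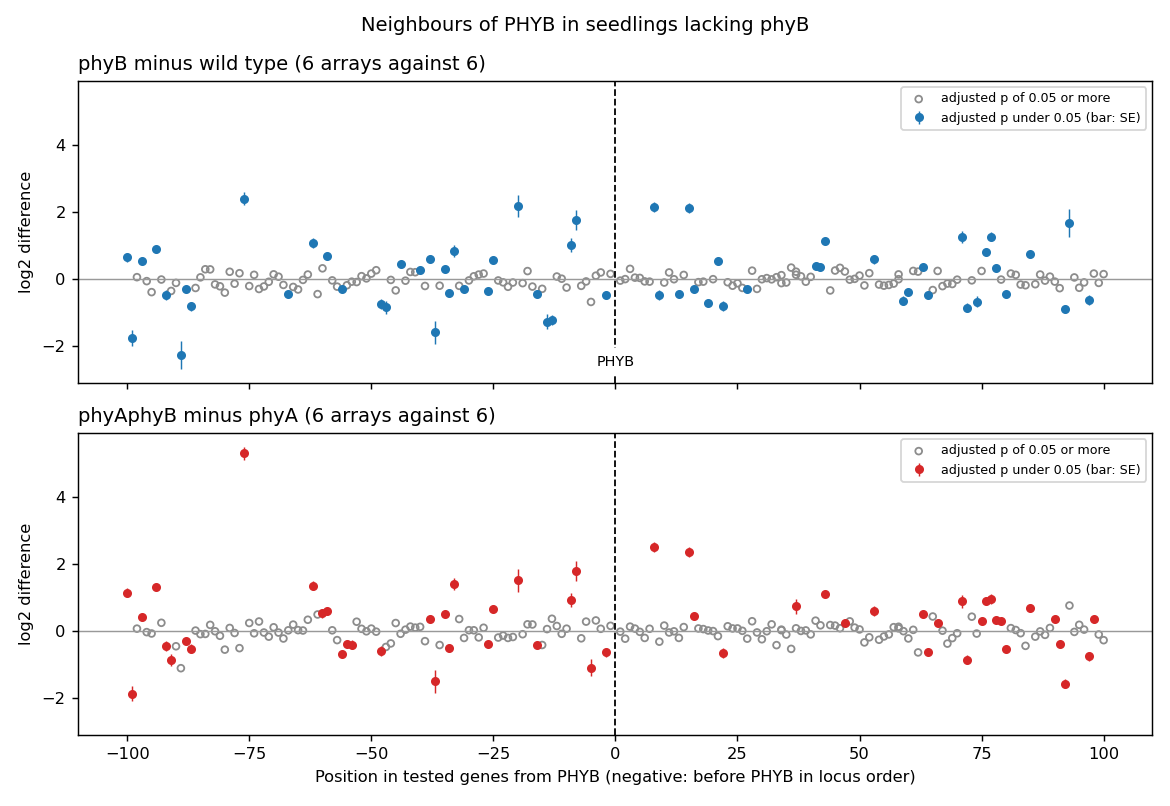
log2 difference (vertical axis) of the 203 tested probe sets flanking PHYB in locus order, counted in tested genes from PHYB (horizontal axis), for phyB minus wild type above and phyAphyB minus phyA below. Filled points with SE bars passed an adjusted p of 0.05, 60 above and 54 below, and lie on both sides of PHYB out to both ends of the range.

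For 18 neighbours (8.87%) the 12 arrays without phytochrome B did not overlap with the 12 arrays that have it, which held for 1.23% of all tested probe sets. Of these 18, 14 were higher and 4 lower in seedlings without phytochrome B, by 0.41 to 3.85 on the log2 scale. The highest rise belonged to AT2G16005, for which the annotation used here gives no symbol. Its signal was 91.3, 171 and 182 in dark wild type, 124, 126 and 161 in red wild type, 75.9, 91.3 and 108 in dark phyA and 34.0, 84.1 and 97.6 in red phyA. In the phyB mutant it read 532, 554 and 717 in the dark and 879, 897 and 905 after red light. In phyAphyB it read 2515, 2946 and 3331 in the dark and 2854, 3081 and 3660 after red light. The 12 arrays lacking phytochrome B were thus all above the other 12, with the phyAphyB arrays above the phyB arrays. The phyB difference was 3.85 ± 0.14 (adjusted p = 3e-16, limma), against dim arrays with phytochrome B, and 3.47 with a pseudocount of 32.

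AT2G18980 lies 8 tested genes beyond PHYB and AT2G19310 lies 15 beyond it. AT2G18980 read 446.8 to 1383 (median 821) without phytochrome B and 108 to 247 (median 168) with it. Its phyB difference was 2.33 ± 0.11 (adjusted p = 4.8e-14), a 5.03-fold rise. AT2G19310 read 361.8 to 843 (median 503) without phytochrome B and 74.3 to 172 (median 116) with it, a rise of 2.24 ± 0.11 (adjusted p = 4.6e-14). Both genes were higher on every array without phytochrome B, and the sizes in phyB and in phyAphyB were close (2.15 and 2.51 for AT2G18980, 2.13 and 2.35 for AT2G19310). AT2G20360 had the smallest SE among the rises of 2-fold or more. It read 1600 to 1902 (median 1718) without phytochrome B and 715 to 875 (median 804) with it. The rise was 1.13 ± 0.048 (adjusted p = 6.1e-15), 1.14 in phyB and 1.12 in phyAphyB.

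**Figure D2:**
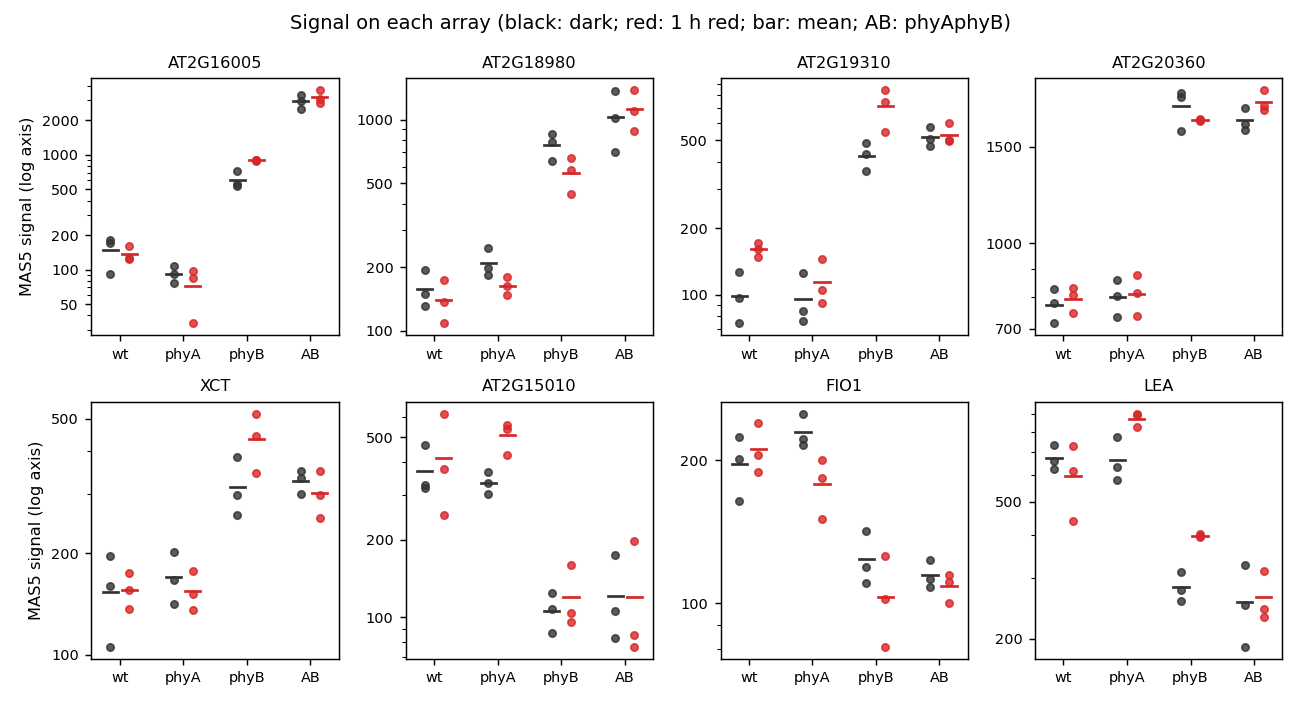
MAS5 signal on a log axis for 8 neighbours of PHYB, each point 1 array and each bar a group mean of 3 arrays, black in the dark and red after 1 h of red light; AB stands for phyAphyB. In all 8 panels the phyB and phyAphyB arrays lie on one side of the wild type and phyA arrays without overlap.

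Among neighbours with a gene symbol, 12 of 24 were called, 4 higher and 8 lower, while 20.6% of all tested probe sets and 272 of the 1157 with a symbol (23.5%) were. XCT (AT2G21150), a nuclear protein needed for normal timing of the circadian clock, read 255 to 517 (median 340) without phytochrome B and 105 to 202 (median 158) with it. The ranges did not overlap, and the rise was 1.11 ± 0.10 (adjusted p = 1.2e-08). FIO1 (AT2G21070), in which mutants have a long circadian period, lies 5 tested genes nearer to PHYB than XCT and went the other way. FIO1 read 80.8 to 142 (median 112) without phytochrome B and 151 to 251 (median 204) with it. It fell by 0.86 on the log2 scale (SE 0.092, adjusted p = 1.1e-07), with -0.86 in phyB and -0.85 in phyAphyB.

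LEA (AT2G21490), a dehydrin of the late embryogenesis abundant proteins that protect cells against water loss, read 189 to 404 (median 295) without phytochrome B and 440 to 901 (median 692) with it. Its arrays did not overlap either, and the difference was -1.23 ± 0.089 (adjusted p = 1.2e-10). MSRA5, a methionine sulfoxide reductase that repairs oxidised methionine, was higher without overlap, at 426 to 596 (median 480) against 247 to 409.9 (median 314). Its rise was 0.62 ± 0.077 (adjusted p = 1.1e-06). TRM26, a member of the family that recruits the microtubule regulator TON1, rose by 0.49 ± 0.076. SNF7.2, a subunit of the ESCRT-III complex that sorts membrane proteins for breakdown, rose by 0.27 ± 0.081 (adjusted p = 0.018).

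CML30, a calmodulin-like calcium sensor, read 83.7 to 163 (median 125) without phytochrome B and 158 to 228 (median 201) with it, a difference of -0.67 ± 0.094. The ranges met at 158 to 163. COAD, an enzyme of coenzyme A synthesis, was lower by -0.44 ± 0.059 (adjusted p = 4e-06). The glycosyltransferase genes UGT73B4 and UGT73B5, next to each other on the chromosome, were lower by -0.61 ± 0.12 and -0.47 ± 0.10. Both overlapped between the groups, at 103 to 175 against 107 to 328 and at 109.7 to 223 against 136 to 304. UGT73B4 read 328 and 269 on dark phyA replicates 2 and 3 and 150 on replicate 1. Its dark means in phyB and wild type were 140 and 147. PIA1, a protein phosphatase, was lower by -0.21 ± 0.068 (adjusted p = 0.027). The eighth symbol among the falls is EXPB1, described with the red-light responses.

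Among the falls, AT2G15010 read 76.7 to 198 (median 105) without phytochrome B and 249 to 618 (median 371) with it. The ranges did not overlap, and the difference was -1.81 ± 0.16 (adjusted p = 5.4e-09). AT2G15000, its neighbour in locus order, went the other way. It read 191 to 348 (median 262) without phytochrome B and 95.0 to 184 (median 141) with it, a rise of 0.90 ± 0.092. AT2G15560 and AT2G17650 had differences of -1.69 ± 0.29 and -1.54 ± 0.25, but at signals of 4.0 to 91.7 and 17.8 to 64.0 without phytochrome B, and their arrays overlapped with those that have it (81.9 to 188 and 22.5 to 140).

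For a pair of called neighbours, 1 array stood apart. AT2G18210 read 848 to 1441 without phytochrome B and 148 to 359 on 11 of the 12 arrays with it, while dark phyA replicate 2, an array with high 25S ribosomal RNA, read 3042. The phyB difference of AT2G18210 was 1.84 ± 0.23 with that array and 2.10 without it. AT2G18690 read 2954 on the same array and 498 to 740 on the 11 others with phytochrome B, against 271 to 656 without it. Its difference was -0.89 ± 0.18 with the array and -0.71 without it, called both times. Dark phyA replicate 3, with still higher 25S ribosomal RNA, read 359 for AT2G18210 and 740 for AT2G18690. The part of the RNA of dark phyA replicate 2 in its 2 high readings was not tested.

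Other rises of at least 2-fold were smaller or dimmer. AT2G18620 read 92.6 to 141 without phytochrome B and 15.7 to 52.5 with it, a rise of 1.77 ± 0.21 without overlap. Every array with phytochrome B lay under its own 40th percentile for this gene, as did 2 of 3 dark phyB and 3 of 3 dark phyAphyB arrays. It therefore passed the brightness filter only through arrays on which it was high. AT2G16750 (165 to 303 against 77.8 to 139) and AT2G15320 (309.8 to 617 against 149.7 to 240.5) rose by 1.21 ± 0.10 and 1.10 ± 0.070, also without overlap. AT2G17850, AT2G21045 and AT2G21510 rose by 1.12 ± 0.12, 1.07 ± 0.13 and 1.22 ± 0.30, and each overlapped between the groups. The other members without overlap were AT2G16800, AT2G17710, AT2G21130 and AT2G21340, all higher by 0.41 to 0.86, and AT2G20830, lower (-0.55 ± 0.067). AT2G17710 was the brightest of these, at 4553 to 5992 without phytochrome B against 3408 to 4524 with it. Falls outside this set included AT2G19680 (-0.72 ± 0.10), AT2G21560 (-0.69 ± 0.10), AT2G17240 (-0.68 ± 0.10) and AT2G17280 (-0.66 ± 0.14), each with overlapping arrays.

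The phyB mutant and phyAphyB can be set against separate controls, wild type and phyA, so these contrasts share no arrays. phyB minus wild type called 60 neighbours (29 higher, 31 lower) against 14.4% of all tested probe sets. phyAphyB minus phyA called 54 (32 higher, 22 lower) against 17.4%. The same direction was called in both for 40 neighbours, 66.7% of the first list and 74.1% of the second, or 19.7% of the neighbours against 4.59% of all tested probe sets. Over all tested probe sets the 692 shared calls made up 31.9% and 26.3% of the lists. The log2 differences of the 2 contrasts had a Pearson correlation of 0.80 (Spearman 0.60) across the 203 neighbours and 0.32 (Spearman 0.19) across all tested probe sets, as descriptions across probe sets on shared arrays. AT2G19340 was the 1 neighbour called in opposite directions, and 143 probe sets were overall.

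**Figure D3:**
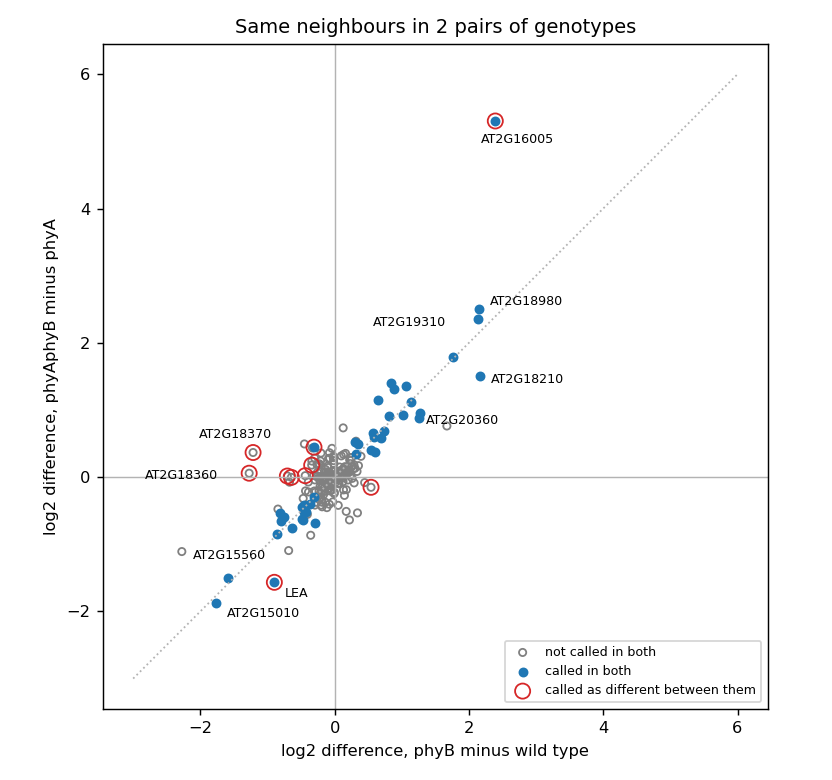
log2 difference of phyB minus wild type (horizontal axis) against that of phyAphyB minus phyA (vertical axis) for the 203 tested neighbours, with a dotted line of equality. Filled points were called in both contrasts, and red rings mark the 10 neighbours whose difference itself changed with phyA status, among them AT2G16005, AT2G18360 and AT2G18370.

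Within each light, 36 neighbours were called for phyB minus wild type in the dark (7.23% overall) and 40 in red (7.03%). For phyAphyB minus phyA, 43 were called in the dark (12.4%) and 33 in red (8.56%). In all 4 pairs of groups, which share no arrays, 17 neighbours (8.37%) were called in the same direction, against 1.31% overall. They were AT2G15010, AT2G15320, AT2G16005, AT2G16750, AT2G16800, AT2G17990, AT2G18620, AT2G18980, AT2G19310, AT2G20360, AT2G20830, AT2G21045, FIO1, AT2G21130, XCT, AT2G21160 and AT2G21340. The count of 17 was 11 without dark phyB replicate 1 and 11 with only the compared groups in each fit. The count of 36 in the dark was 21 without dark wild type replicate 3, 23 without dark phyB replicate 1 and 22 without dark phyB replicate 3.

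The phyB difference in red was set against that in the dark as an interaction. No neighbour passed (0 of 203, with 17 at an unadjusted p under 0.05), and 0.212% of all tested probe sets did. With array weights, or without dark phyA replicates 2 and 3, 1 neighbour passed. A missing call does not show that the differences were equal in the 2 lights.

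Position along the chromosome was described by bins of 50 tested genes in locus order, with 22 in the first bin and 19 in the last. The 4 bins that make up the neighbours of PHYB had 38%, 40%, 24% and 42% of their genes called and 6, 3, 3 and 6 genes without overlap. The bins next to them were similar in calls, with 32% in each of the 3 bins before AT2G15000 and with 44% and 30% in the bins from AT2G21640 to AT2G23810 and from AT2G23890 to AT2G25570. From AT2G25590 to the end of the chromosome, 4% to 18% of the genes of a bin were called. In that stretch 1 gene, AT2G45920, had no overlap between its arrays. Before AT2G15000 there were 7 genes without overlap and, between AT2G21640 and AT2G25570, 4. Among them PIP (AT2G14260), a proline iminopeptidase, had a difference of -2.77 ± 0.089 and ALDH6B2, an aldehyde dehydrogenase, 0.81 ± 0.048. The range chosen therefore does not enclose all differences of this kind on chromosome 2. Some bins on other chromosomes had as many calls and as many genes without overlap, as given under other observations.

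**Figure D4:**
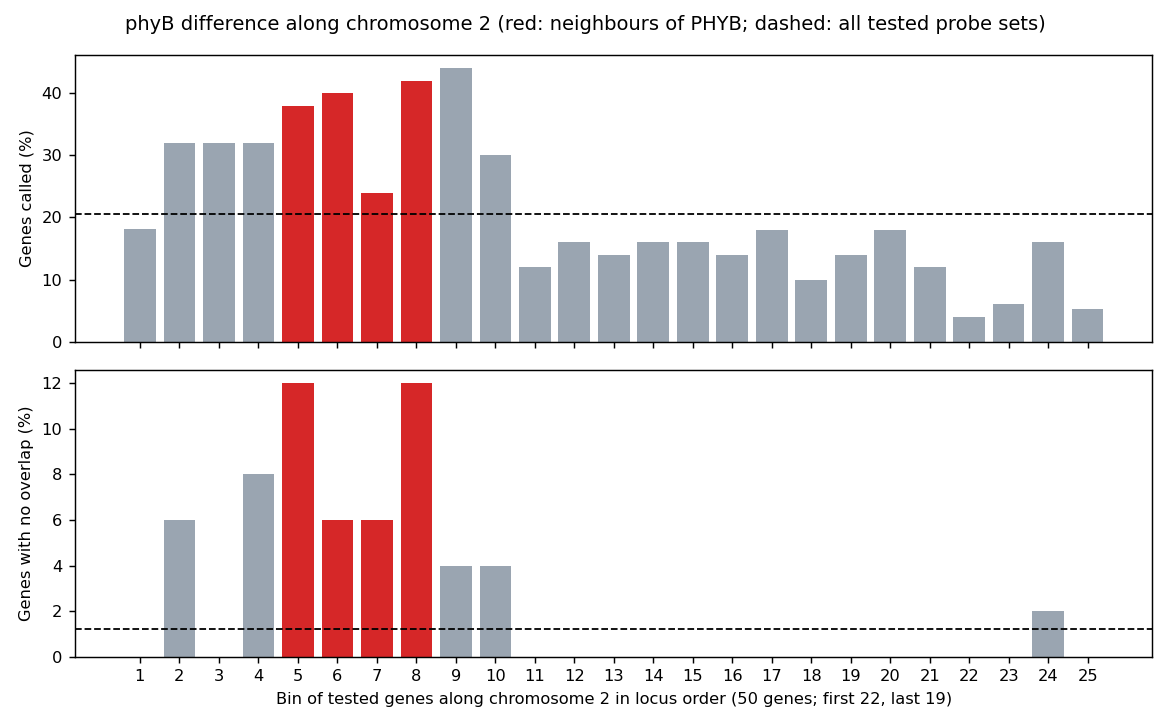
Share of genes called for the phyB difference (upper bars, %) and share of genes whose 12 and 12 arrays did not overlap (lower bars, %) in bins of tested genes along chromosome 2, with the 4 bins of PHYB neighbours in red and the value over all tested probe sets dashed. The shares are above the dashed lines in the red bins, and calls stay at or below 18% from bin 11 on.

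At the ends of the range, AT2G15000 (0.90) and AT2G15010 (-1.81) lie just inside and AT2G14900 (0.54) and AT2G14910 (0.00) just outside. At the other end RD2 (-0.11) and AT2G21630 (-0.06) lie inside and AT2G21640 (0.44) and AT2G21820 (-1.35) outside. Closest to PHYB itself, 1 of the 8 nearest tested genes, 4 on each side, was called, where 20.6% of all tested probe sets were, and with 8 genes nothing is read from this count. This was AT2G18770, which read 247 to 479 (median 312) without phytochrome B and 372 to 596 (median 517) with it, a difference of -0.55 ± 0.088 (adjusted p = 3.6e-05) with overlapping arrays. AT2G18780, AT2G18750 and AT2G18740 on its side had differences of 0.15, 0.13 and 0.21. On the other side AT2G18820, annotated as a pseudogene, AT2G18850, AT2G18890 and AT2G18900 had -0.03, -0.12, 0.22 and 0.06. AT2G18890 was close to the threshold (adjusted p = 0.054) and passed it with quantile normalization (adjusted p = 0.041). Before PHYB 39 of 100 probe sets were called and after it 34 of 103, with 9 free of overlap on each side.

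Some called neighbours lay side by side. With 36.0% of the neighbours called, such runs also occur in a random order. The runs were not compared with one, so nothing is read from their number or length. The longest run of consecutive tested genes with a call had 5 members, from AT2G21100 to AT2G21160, with 4 higher and 1 lower, and was picked after its values were seen. In it AT2G21120, AT2G21130, XCT and AT2G21160 rose by 0.26, 0.86, 1.11 and 0.33, and AT2G21100 had -0.37. The 3 genes from AT2G20320 to AT2G20360 were all higher, and AT2G15560 to CML30 and AT2G16880 to AT2G16940 held 3 lower genes each. The runs of 3 from AT2G17710 to AT2G17850 (2 higher, 1 lower) and from AT2G21440 to AT2G21510 (1 higher, 2 lower) were mixed.

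Whether the phyB difference depended on phytochrome A was tested as an interaction. It passed for 10 of the 203 neighbours (4.93%), 8 positive and 2 negative, against 11.0% of all tested probe sets. Without dark phyA replicate 1, 18 neighbours passed. For AT2G16005 the difference was 2.39 ± 0.19 with phytochrome A present and 5.30 ± 0.19 with it absent, an interaction of 2.91 ± 0.28 (adjusted p = 5.1e-08). The phyA arrays behind the second value were dim, with 2 of 3 in the dark and 3 of 3 in red under their array's 40th percentile, so its exact size is uncertain. With a pseudocount of 32 the differences were 2.15 and 4.79 and the interaction 2.64. AT2G18360 and AT2G18370 are adjacent in locus order, 14 and 13 tested genes before PHYB. AT2G18370 read 538, 586 and 611 in dark wild type and 198, 248 and 250.1 in dark phyB. In red it read 432, 548 and 550.3 in wild type and 166, 266 and 298 in phyB. The phyA arrays read 389.6, 479.5 and 495.5 in the dark and 309, 346 and 423 in red. The phyAphyB arrays read 443, 452 and 549 in the dark and 384, 640.3 and 712 in red. Each of the 6 phyB arrays thus lay below each of the other 18, with -1.21 ± 0.15 in phyB and 0.37 ± 0.15 in phyAphyB (interaction 1.58 ± 0.21, adjusted p = 7.5e-06).

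AT2G18360 read 36.6 to 127 on the 6 phyB arrays and 103 to 192 on the 6 phyAphyB arrays, with overlap. The differences were -1.27 ± 0.22 in phyB and 0.06 ± 0.22 in phyAphyB, an interaction of 1.33 ± 0.31 (adjusted p = 0.0051). AT2G19340 was lower in phyB (-0.31 ± 0.076) and higher in phyAphyB (0.45 ± 0.076), where the dark phyA arrays it was set against read 505 to 577 and the red ones 815 to 835. LEA fell in both, by 0.90 in phyB and by 1.57 in phyAphyB. Its interaction (-0.67 ± 0.18, adjusted p = 0.014) was not called without dark phyA replicates 2 and 3 (-0.58, adjusted p = 0.074), and likewise that of AT2G19660 (-0.69 ± 0.17, then -0.53 with adjusted p = 0.065).

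**Figure D5:**
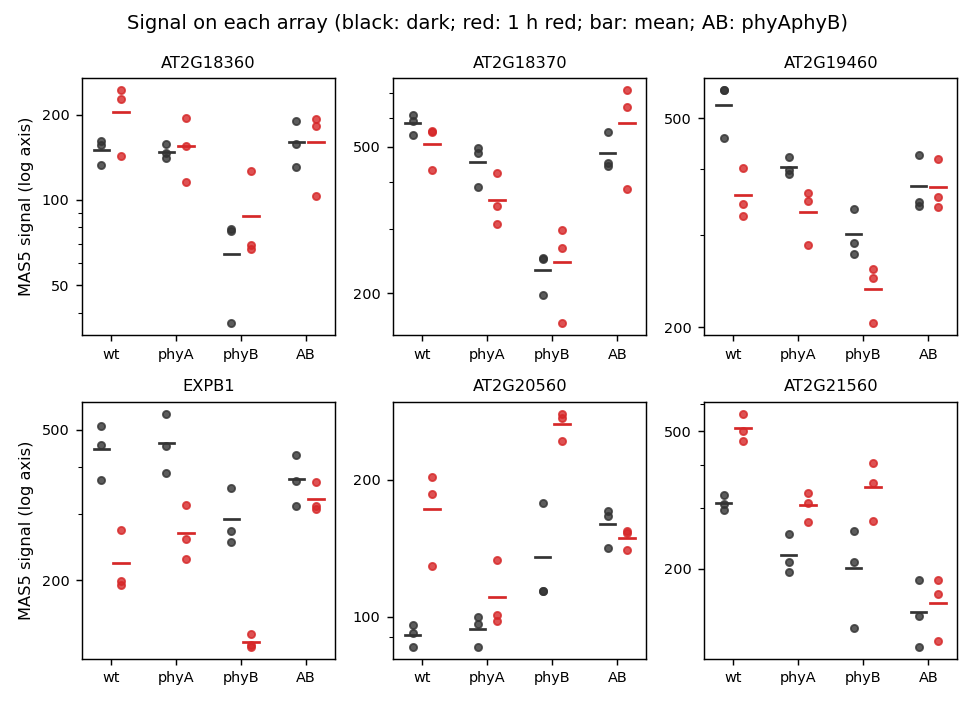
MAS5 signal on a log axis for 6 neighbours of PHYB whose signal changed with phyA status or with red light, each point 1 array and each bar a group mean of 3 arrays, black in the dark and red after 1 h of red light; AB stands for phyAphyB. AT2G18360 and AT2G18370 are lowest in phyB, and EXPB1 is lower in red than in the dark in wild type, phyA and phyB.

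The loss of phytochrome A, taken over both phyB states and both lights, was called for 26 neighbours (15 higher, 11 lower), 12.8% against 22.9% of all tested probe sets. The median size was 0.094 (log2) among the neighbours and 0.119 overall. AT2G21560 (-0.69 ± 0.10) and AT2G21100 (0.55 ± 0.11) were among the called. AT2G15560 (0.94 ± 0.29) was not called without dark phyA replicates 2 and 3 (0.92, adjusted p = 0.062), nor was AT2G20142 (0.69 ± 0.18, then 0.45), which read 307 on dark phyA replicate 2 and 47.5 to 176 elsewhere.

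A response to 1 h of red light was called for 7 of the 203 neighbours (3.45%) in each of wild type, phyA and phyB. The shares of all tested probe sets were 6.45%, 4.34% and 5.75%, so the share in phyA was close to that of all tested probe sets. In wild type 5 were higher and 2 lower. In phyAphyB 0 were called, against 0.305%, with 4 neighbours at an unadjusted p under 0.05. The count of wild type was 4 without dark replicate 3, and that of phyA was 16 without dark replicate 1, 3 without dark replicate 2, 4 without dark replicate 3 and 2 without red replicate 3. EXPB1, a beta-expansin that loosens cell walls, read 369, 457 and 511 in dark wild type and 194.5, 199 and 272 after red light. In phyB it read 252, 270 and 351 in the dark and 133, 135 and 145 after red. In phyAphyB it read 315, 365 and 429 and then 308.5, 315 and 364. The response of EXPB1 was -1.01 ± 0.18 in wild type, -0.79 ± 0.18 in phyA, -1.07 ± 0.18 in phyB and -0.16 ± 0.18 in phyAphyB, the last not called. In phyA it was lost without red replicate 3 (-0.68, adjusted p = 0.051). Its phyB difference was -0.64 ± 0.12 against wild type and -0.00 ± 0.12 against phyA (interaction 0.64 ± 0.18, adjusted p = 0.018, and 0.51 with adjusted p = 0.11 without dark phyA replicates 2 and 3).

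AT2G20560 read 85.9, 92.2 and 95.8 in dark wild type and 129, 185.5 and 203 after red light, and 114, 114 and 178 and then 243, 273.5 and 279 in phyB. Its red response was 0.89 ± 0.20 in wild type, where all 3 dark arrays lay under their 40th percentile, and 1.00 ± 0.20 in phyB (0.71 and 0.85 with a pseudocount of 32, both called), and its phyB difference over all arrays was 0.60 ± 0.10, with overlap. AT2G16365 rose after red in phyB by 1.27 ± 0.19 (adjusted p = 4.3e-05), from 217, 354 and 470 to 711, 776 and 908, and had 0.52 ± 0.19 in wild type (adjusted p = 0.11). AT2G17760 rose in wild type by 0.84 ± 0.17, from 398, 471 and 503 to 751, 780 and 932, with 0.21 ± 0.17 in phyB. Whether these responses differed between genotypes was not tested, apart from the phyB difference in red against dark.

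AT2G16900 was higher after red in wild type (0.50 ± 0.13). AT2G19460 was lower there (-0.57 ± 0.14), a call lost without dark replicates 2 or 3 or red replicate 1 (-0.52, -0.52 and -0.51, adjusted p = 0.062, 0.063 and 0.067). AT2G21560 was higher in wild type (0.72 ± 0.21) and in phyB (0.81 ± 0.21), and AT2G19310 in wild type (0.73 ± 0.21) and in phyB (0.72 ± 0.21). The wild type call of AT2G21560 was lost without any 1 of its 6 arrays (0.65 to 0.78, adjusted p = 0.063 to 0.125), and its phyB call without dark replicate 1 or red replicates 2 or 3 (0.55, 0.78 and 0.69). That of AT2G19310 in wild type was lost without any 1 array other than dark replicate 2 (0.54 to 0.78, adjusted p = 0.067 to 0.256). AT2G19730 was lower in phyB (-0.43 ± 0.11), a call lost without dark replicates 2 or 3 or red replicates 1 or 2 (-0.42, -0.36, -0.41 and -0.44). In phyA the fall of AT2G18210 (-1.63 ± 0.47) rested on dark replicate 2 and became -0.58 (adjusted p = 0.15) without it. AT2G19340 (0.61 ± 0.11) and AT2G19660 (-0.93 ± 0.17) were also called in phyA, the latter not without dark replicates 2 and 3 (-0.61, adjusted p = 0.16). The phyA calls of AT2G15000 (0.67 ± 0.18), AT2G17530 (-0.47 ± 0.13) and AT2G17970 (0.75 ± 0.20) were each lost without any of 4 arrays, dark replicates 2 and 3 among them (0.62 and 0.69, -0.42 and -0.42, and 0.62 and 0.76). For AT2G20050 the dimmer of its probe sets was called in phyB (0.91) while the brighter had 0.09 (adjusted p = 0.80).

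Of genes on the lists used for background, few were named on the array. FIO1 was the 1 tested of 10 listed neighbours linked to light or the clock, and EXPB1 the 1 of 15 linked to growth. XCT, also linked to the clock and described above as higher, was on none of these lists. RD2 and HIS1-3, a linker histone induced by drought, were the 2 of 13 linked to stress, with phyB differences of -0.11 and -0.12 that were not called. Away from the locus, 5 of 29 phytochrome pathway genes were tested, and 1, HAT2 (0.20 ± 0.071, adjusted p = 0.041), a transcription factor that responds to auxin, was called. The median phyB difference of those 5 was 0.03. GI, HYH, IAA29 and FHL were not called, at 0.00, -0.21, 0.18 and 0.03.

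Some markers of particular tissues or stages moved with phyB status. ICL, the isocitrate lyase that seedlings use to turn stored lipid into sugar, was the 1 tested of 5 seed reserve markers. It read 8497 to 14414 without phytochrome B and 14720 to 22189 with it, without overlap (-0.63 ± 0.053). The fall of ICL was smaller in phyB (-0.39) than in phyAphyB (-0.87, interaction adjusted p = 0.0035, limma). Of 3 tested cotyledon plastid markers 2 were lower, LHCB4.2 (-0.60 ± 0.095) and LHCB4.1 (-0.37 ± 0.056). LHCB4.2 had -0.10 in phyB, not called, and -1.09 in phyAphyB (interaction adjusted p = 0.0008), while LHCB4.1 had -0.40 and -0.35. The summed signal of the 3 was 11472 to 19801 against 14850.5 to 23284. The summed etiolation markers read 4684 to 9706 against 3838 to 8388, with PORB higher (0.29 ± 0.073) and HEMA2 not called. PORB had 0.15 in phyB, not called, and 0.42 in phyAphyB, called, and its interaction was not called. The summed root hair markers were dim at 99.6 to 247 against 97.1 to 244. The reference gene PEX4 read 1754 to 2899 against 1700 to 2965. No marker stood at 0. The part of such shifts in the signals of the PHYB neighbours was not tested. A signal of this kind can also change with the bases beneath a probe, and this was not tested, since probe sequences were not used here.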

How the data were processed

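The deposited values are intensity values on a linear scale, 1 signal per probe set and array, made by the authors with MAS5, per the submitters' processing notes. Their mean after trimming 2% at each end was 500.038 to 500.044 on all 24 arrays, so no further scaling was applied. After 64 control probe sets were left out, tests were limited to probe sets above the 40th percentile of an array on at least 3 arrays. The log2 of the deposited signal was taken without a pseudocount, with 0.05 in place of a value of 0.

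Of 22746 probe sets, 13513 had 1 gene in the annotation, 503 several and 8730 none. In the range, 23 probe sets with several genes were left out. Names and gene order came from TAIR10.1, with 77 loci unmatched. Coordinates are left out, since the probes come with no build.

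limma 3.58.1 (R 4.3.3) fitted 1 mean for each of the 8 groups to all arrays, with an intensity trend in eBayes. Tests were two-sided. The procedure was tested on simulated data. The p-values measure the spread between these samples.

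The members and lists were chosen with earlier results of these data known. Named were the 12 largest called rises and falls of the phyB difference, up to 4 of each from every other contrast, the 4 tested genes nearest to PHYB on each side, 2 genes inside and outside each end, and called members of the lists. Other members are named where a count or a run is listed. Where a gene had more than 1 probe set, the brightest is given, except where they disagree. Alternatives were another normalization, filters, a pseudocount of 32, no trend, the compared groups alone, array weights, the replicate number as a block, and the leaving out of arrays.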

Additional observations from a re-analysis of the deposited data

Results flagged for a closer look

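For 10 neighbours of PHYB the effect of lacking phytochrome B differed between seedlings with and without phytochrome A, by the interaction term of the limma fit. The difference of log2 differences (phytochrome A absent minus present) was 2.91 for AT2G16005, which was higher on all 12 arrays without phytochrome B. It was 1.33 for AT2G18360 and 1.58 for AT2G18370, which are adjacent and were low on phyB arrays, and 0.72 for AT2G19460 and 0.64 for EXPB1, which had -0.70 and -0.64 in phyB and 0.02 and -0.00 in phyAphyB. The values were 0.75 for AT2G19340 and 0.52 for AT2G20390, for which the difference was negative in phyB and positive in phyAphyB. For AT2G16630 the value was 0.46, with a negative difference in phyB and little change in phyAphyB. Its phyAphyB means were 811 in the dark and 952.5 in red, against 814 and 916 in phyA. They were -0.69 for AT2G19660 and -0.67 for LEA. Without dark phyA replicates 2 and 3 the calls of AT2G19660, LEA, EXPB1 (0.51, adjusted p = 0.11) and AT2G20390 (0.57, adjusted p = 0.069) were lost. AT2G20390 was close to the threshold and lost its call in 18 of 32 alternatives (highest adjusted p = 0.093), the replicate block among them (adjusted p = 0.058). The 6 other calls held in every alternative in which they were tested.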

How the results depend on the processing

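A set of 25 named neighbours called for the phyB difference over all arrays was refitted under 32 alternatives. All 25 stayed called with the same direction in all 790 refits (highest adjusted p = 0.0168). Other called neighbours named above, SNF7.2 and PIA1 among them, are outside this set. The count of 73 ranged from 55 with a filter at the 60th percentile to 84 with array weights, and from 68 to 76 without each array in turn. Deviations of same-numbered samples were on average uncorrelated (mean -0.004). The correlations lay between -0.256 and 0.279, with 17 of 84 above 0.1, so pairing within some groups is not excluded. With the replicate block 74 neighbours were called, 61 for phyB minus wild type, 53 for phyAphyB minus phyA and 14 in all 4 pairs. Of the 16 neighbours at 2-fold or more, 10 were left with the filter at the 60th percentile, which tests fewer probe sets, 11 with a pseudocount of 32, and 15 to 17 without each array. The count of 17 in all 4 pairs was 11 with the compared groups alone and 11 to 18 without each array. The 18 neighbours without overlap were 18 with quantile normalization and 22 without dark phyA replicates 2 and 3. Counts over these 3 criteria were recomputed by alternatives added after the data had been seen. The 36 dark calls of phyB minus wild type ranged from 21 to 33 without each array. The interaction of the phyB difference with red light had 0 calls, and 1 with array weights or without dark phyA replicates 2 and 3. Its interaction with phytochrome A had 10, 21 with array weights and 9 to 18 without each array, 18 without dark phyA replicate 1. Red responses moved most. The 7 of wild type became 17 with array weights and 4 to 6 without each array. The 7 of phyA became 4 with no filter, 1 with the compared groups alone, 15 with array weights and 2 to 16 without each array. The 7 of phyB became 12 with array weights and 5 to 6 without each array. The cause was not tested. Over 116 results for 53 named neighbours none reversed, 25 lost their call in at least 1 alternative and 3 gained one. The interactions of EXPB1 and AT2G20390 with phytochrome A, which also lost their calls, are outside this tally. Signals below the 40th percentile vary widely on the log2 scale, which limits AT2G15560, AT2G16005, AT2G16750, AT2G17650, AT2G17850, AT2G18360, AT2G18620, AT2G19310, AT2G20142, AT2G20560 and AT2G21510, in each of which at least 1 group had all 3 arrays below it.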

Other observations

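The same count of genes whose 12 and 12 arrays did not overlap was made in 138 bins of tested genes on the other 4 chromosomes. Each bin had 50 genes, apart from the last of each chromosome, which had fewer. The median bin had 0 such genes. The highest count, 7, was in the bin from AT4G19160 to AT4G21326, above the 3 to 6 of the bins beside PHYB, and 9 bins had at least 3. The bins from AT4G16450 to AT4G17540, AT5G42370 to AT5G43880 and AT5G43910 to AT5G45480 had 5 each. For the phyB difference these bins had 19, 16 and 22 genes called, and 4, 4 and 6 called at 2-fold or more. The bin from AT4G19160 to AT4G21326 had 28 and 10. The bins of PHYB neighbours had 12 to 21 called and 3 to 5 at 2-fold or more. A high share of calls was thus not particular to the neighbours of PHYB.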
